A study of Mus musculus with 165 samples.

Results

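The genes for 7 leukocyte integrin subunits and for 1 selectin ligand were followed through the differentiation of PUER cells: Itgam, Itgal and Itgax, Itgb2, Itga4, Itgb1, Itgb7 and Selplg. The 8 genes were taken by their symbols from a table of 36255 genes, by a rule that uses no measured value but was set with earlier results of these data known, and all 8 were among the 17414 genes that passed the filter on low values (a normalized count of 5 or more in any fitted library). PUER cells are a mouse myeloid progenitor line, described by the labels as bone marrow-derived, that lacks the Spi1 gene product PU.1 (Spi1-/-) and carries a fusion of PU.1 with the part of the estrogen receptor that binds its ligand. All groups share that background, and 4-hydroxytamoxifen (OHT) activates the fusion protein. Undifferentiated cells grown in IL3 without OHT (3 libraries) are the start of both courses. For the macrophage course, 200 nM OHT was added in IL3 (the IL3-OHT groups). For the neutrophil course, cells were first held in GCSF for 48 h (the GCSF 0h group, 3 libraries, before OHT) and then received 100 nM OHT in GCSF (the GCSF-OHT groups). For that step the cells were washed and reseeded in medium with GCSF in place of IL3. The addition of GCSF, the loss of IL3 and any added time in culture thus cannot be told apart at GCSF 0h. Each course was sampled at 27 time points from 1h to 168h, with 3 libraries at each time point other than GCSF-OHT 96h, 112h and 152h, which have 2. The cytokine and the OHT dose differ together between the courses, so their effects cannot be told apart. Each time point was 1 culture plate, so plate and time cannot be told apart either, and the libraries of a group are wells, so the p-values measure the spread between wells.

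Integrins are pairs of an alpha and a beta subunit that hold a cell to matrix or to other cells. The beta2 subunit Itgb2 (CD18) pairs with Itgal (CD11a) to form LFA-1, with Itgam (CD11b) to form Mac-1, the complement receptor of neutrophils and macrophages, and with Itgax (CD11c), best known from dendritic cells and some macrophages. Itga4 (CD49d) pairs with Itgb1 (CD29) to form VLA-4, which binds VCAM-1 and fibronectin, or with Itgb7, a pair that also binds the gut addressin MAdCAM-1. Itgb1 also pairs with many other alpha subunits. Selplg encodes PSGL-1, the sialomucin by which leukocytes tether to and roll on selectins before integrins arrest them. The data are RNA levels and say nothing of the protein at the cell surface or of its active state.

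The genes lie on 6 chromosomes (GRCm38, GENCODE vM21 annotation). Itgam (ENSMUSG00000030786) is at chr7:128062640-128118491, Itgax (ENSMUSG00000030789) at chr7:128129547-128150657 and Itgal (ENSMUSG00000030830) at chr7:127296260-127335138, all on the plus strand of chromosome 7. Itgb2 (ENSMUSG00000000290) is at chr10:77530252-77565708, Itga4 (ENSMUSG00000027009) at chr2:79255426-79333123 and Itgb1 (ENSMUSG00000025809) at chr8:128685654-128733200, on the plus strand. Itgb7 (ENSMUSG00000001281) at chr15:102215995-102231944 and Selplg (ENSMUSG00000048163) at chr5:113818536-113832644 are on the minus strand. Itgam overlaps Gm49368 on the same strand and Itga4 overlaps Cerkl on the opposite strand, and the highest normalized counts of these partners in any library were 112 and 5.27.

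The promoters of 3 alpha subunits are shown because Itgam and Itgax, which lie close together on chromosome 7, and Itga4 were each at different levels over the courses. The RefSeq tables (GRCm38.p6) held 5 of the 8 members. Each sequence is the 250 bases before the start of the gene in those tables, 5′ to 3′ on the plus strand. Capitals mark GAGGAA or its reverse complement TTCCTC, a core that PU.1 is known to bind. For Itgax and Itgb7 that start is not the one of the annotation above, so their windows reach into the gene as placed there.
Itgam, chr7:128062390-128062639: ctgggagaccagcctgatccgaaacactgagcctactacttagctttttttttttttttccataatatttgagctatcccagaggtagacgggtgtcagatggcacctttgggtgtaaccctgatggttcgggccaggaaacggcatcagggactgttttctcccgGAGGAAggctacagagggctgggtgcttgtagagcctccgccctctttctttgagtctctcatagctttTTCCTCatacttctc
Itgax, chr7:128129300-128129549: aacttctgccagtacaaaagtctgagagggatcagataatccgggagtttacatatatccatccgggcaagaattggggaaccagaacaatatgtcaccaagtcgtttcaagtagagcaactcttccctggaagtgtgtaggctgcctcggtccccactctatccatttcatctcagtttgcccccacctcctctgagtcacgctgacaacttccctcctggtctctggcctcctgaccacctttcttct
Itga4, chr2:79255176-79255425: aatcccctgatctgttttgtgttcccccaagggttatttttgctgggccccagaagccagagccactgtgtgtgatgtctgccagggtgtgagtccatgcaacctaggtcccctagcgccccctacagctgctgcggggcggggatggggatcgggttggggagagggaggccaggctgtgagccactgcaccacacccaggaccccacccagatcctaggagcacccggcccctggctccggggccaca
The Itgam window held GAGGAA at 84 to 79 bases before the start and TTCCTC at 15 to 10 bases before it, and the Itgax and Itga4 windows held neither. Among the other members with an entry, the Itgb1 window held GAGGAA at 9 to 4 bases before the start and the Itgb7 window held none. On either strand, GAGGAA was in 23.3% of 32851 windows of the same length, so a match is common. The Sp1-type sequence GGGCGG, in 32.7% of the windows, was found for Itga4, for Itgb1 (151 to 146 bases before the start) and, as CCGCCC, for Itgam (47 to 42), at places that do not overlap the capitals. The C/EBP-type sequence TTGCNNAA, in 9.6% of the windows, was found in none of the 5. Itgb2, Itgal and Selplg had no entry.

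Libraries held 14600246 to 33147945 reads on genes (median 21960878), and the limit that a count of 0 allows, 3 reads, was 1.96 to 5.51 normalized counts. Normalized counts are reads divided by the library's size factor. Of 15 neutrophil markers, 14 to 15 had a mean of at least 10 in the undifferentiated, GCSF 0h, IL3-OHT 168h and GCSF-OHT 168h groups, and their summed level was 336904 to 344051 in undifferentiated libraries and 765499 to 814620.3 at GCSF-OHT 168h. These markers did not move together between the 2 groups. Means fell for Elane (108129 to 66130), Ctsg (36819 to 18064), Prtn3 (35822 to 33789) and Camp (3864 to 3148). The remaining means were higher, with S100a8 (41511 to 190483), S100a9 (52666 to 278296) and Lcn2 (14186 to 125149) making up most of the rise of the sum. Of 14 monocyte and macrophage markers, 5 to 8 reached that mean, their sum was 23281 to 26268 in undifferentiated libraries and 19821 to 22485 at IL3-OHT 168h, and C1qb and Klf4 were at 0 in every library of the 4 groups. Csf1r, the macrophage growth factor receptor, had means of 8.63 in undifferentiated cells and 4.91 at IL3-OHT 168h, against 8.65 and 334 for Adgre1 (F4/80). Over the same groups Cx3cr1 went from 61.9 to 1323, Ccr2 from 49.3 to 1667 and Cd68 from 2226 to 3471. Of the defining markers, Csf1r and C1qb were thus near or at 0 at the end of the course labelled macrophage. Adgre1, Cx3cr1, Ccr2 and Cd68 were higher there than in undifferentiated cells, while Ly6c2 (22042 to 14435) and F13a1 (588 to 286) were lower. At GCSF-OHT 168h Cx3cr1 (4167) and Ccr2 (3225) were higher than at IL3-OHT 168h, and Adgre1 (255) and Cd68 (1576) were lower. Markers of 8 other cell types that the cultures could hold reached a mean of 10 for at most 4 of 10 (mast cell or basophil), 4 of 7 (stroma or endothelium), 3 of 7 (T or NK cell), 2 of 6 (B cell), 2 of 7 (erythroid), 2 of 5 (megakaryocyte), 1 of 6 (dendritic cell) and 0 of 6 (eosinophil). Spi1 reads, which cannot be assigned to the fusion or the disrupted gene, were at 4482 to 13387 normalized counts (median 8902) in all libraries. In bulk samples, fewer cells of a type and less RNA per cell cannot be told apart.

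Levels between genes were compared per kilobase of the principal transcript. Itgb2, the shared beta2 subunit, was the highest of the 8 genes in the undifferentiated, GCSF 0h, IL3-OHT 168h and GCSF-OHT 168h groups, at 9349 ± 213.7, 5697 ± 502, 14693 ± 244 and 9157 ± 128.1 normalized counts per kilobase (SD, n = 3), which was 59.6% to 65.8% of the sum over the members. Itgb1 and Selplg came next. In undifferentiated cells they stood at 3137 and 3013 per kilobase with overlapping libraries, and at GCSF-OHT 168h at 1906 and 1884, again overlapping. At IL3-OHT 168h Selplg (3626) was above Itgb1 (2661), an order that turned when the length of all merged exons was used. With merged exons Itgam also stood above Selplg at GCSF-OHT 168h.

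The alpha subunits were far below Itgb2 throughout. In undifferentiated cells Itgam had 123.9 normalized counts per kilobase, and Itgb7, Itgax, Itga4 and Itgal had 27.03, 18.7, 14.5 and 12.7, of which only Itga4 and Itgal, neighbours in the order, overlapped. At GCSF 0h the order of the alpha subunits was Itgal (49.8), Itgam (37.4), Itga4 (32.4) and Itgax (1.79), with Itgam and Itga4 overlapping. At IL3-OHT 168h it was Itgam (1637), Itgax (44.4), Itga4 (31.7) and Itgal (5.98), and at GCSF-OHT 168h Itgam (894), Itgal (68.2), Itga4 (60.8) and Itgax (20.3). Itgal, the alpha subunit of LFA-1, was thus the lowest of the 8 genes in undifferentiated cells and at IL3-OHT 168h, and Itgax was the lowest in both GCSF groups. At GCSF-OHT 168h the libraries of Itgal and Itga4 overlapped, as did those of Itgb7 and Itgax, and at IL3-OHT 168h those of Itgax and Itgb7.

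**Figure D1:**
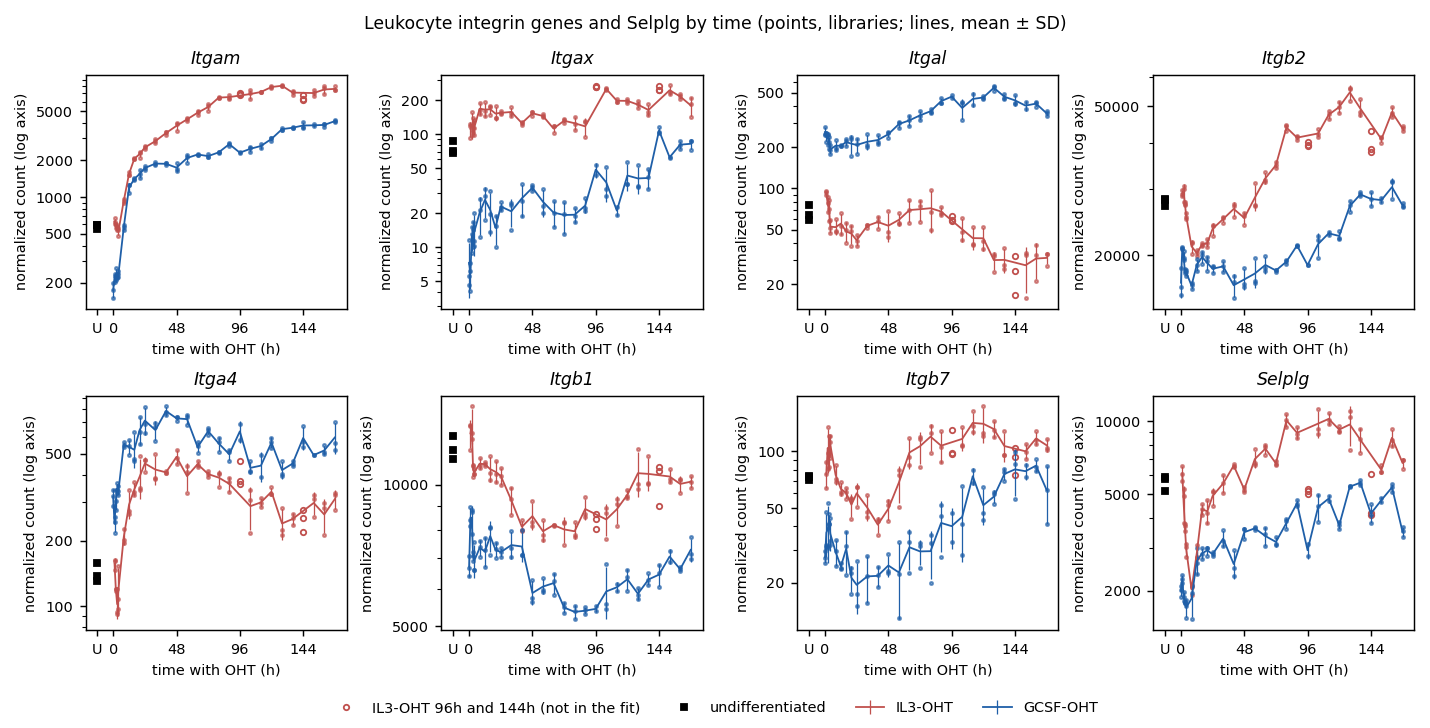
Normalized counts (log axis) of the 8 genes against hours after OHT, 1 panel a gene. Points are libraries, lines join the group means, and the courses in IL3 and in GCSF have a colour each. The plot shows Itgal above and Itgax below the IL3 course at every shared time point in GCSF and Itgam climbing in both courses.

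Itgam, the alpha subunit of Mac-1, fell in GCSF before OHT and rose under OHT in both cytokines. Its normalized counts were 590.1, 586 and 552 in the 3 undifferentiated libraries and 198.7, 174.4 and 149.1 after 48 h of GCSF. They were 7439, 7997 and 7400.1 at IL3-OHT 168h and 4235, 4140.1 and 4086 at GCSF-OHT 168h. No 2 of these 4 groups overlapped, the GCSF 0h libraries were the lowest and those of IL3-OHT 168h the highest. On the log2 scale of normalized count plus 1, the change from undifferentiated cells was -1.73 (SE 0.0618, adjusted p = 1.35e-50) for GCSF 0h and 3.72 for IL3-OHT 168h, a 13.2-fold rise of the mean. From GCSF 0h to GCSF-OHT 168h it was 4.58 (SE 0.0618, adjusted p = 8.92e-94), a 23.9-fold rise. These adjusted p-values and those that follow are from limma over the 17414 genes with Benjamini-Hochberg adjustment, and a gene is called where adjusted p is under 0.05 and the absolute log2 change is over 0.58.

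Itgam was first called above its start at 8h in both courses. In IL3 its means were 529 ± 39.7 at 4h, 931 ± 33.8 at 8h and 1544 ± 60.9 at 12h (SD, n = 3, as for the group means that follow), and the log2 steps were 0.82 (SE 0.0618, adjusted p = 1.47e-22) and 0.73 (SE 0.0618, adjusted p = 3.98e-19). In GCSF the means at these hours were 236 ± 12.8, 567 ± 25.9 and 1196 ± 95.4, and the steps were 1.26 (SE 0.0618, adjusted p = 1.9e-35) and 1.07 (SE 0.0618, adjusted p = 1.68e-29). In GCSF the level was already above its start at 1h, by a log2 difference of 0.36 (SE 0.0618, adjusted p = 1.28e-06), under the fold threshold. Itgam was called above the start of its course at 8h and at every later time point of the fit, and these were the only steps under OHT called for it. It was highest at 128h in IL3 (8078 ± 72.4) and at 168h in GCSF (4154 ± 75.3).

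Itgax, the alpha subunit CD11c, had the largest fall of the members in GCSF before OHT. The undifferentiated libraries were at 87.7, 70.6 and 68.5 normalized counts and the GCSF 0h libraries at 4.62, 11.5 and 5.59, which are 5 to 13 reads. They stood at 142.5, 210.4 and 185.7 at IL3-OHT 168h and at 72.8, 86.1 and 87.3 at GCSF-OHT 168h. The GCSF 0h libraries were below all others, those of IL3-OHT 168h above all others, and the undifferentiated and GCSF-OHT 168h libraries overlapped. The change in GCSF before OHT was -3.30 (SE 0.234, adjusted p = 1.65e-25), a 10.4-fold fall of the mean. Under OHT Itgax rose by 1.23 (SE 0.234, adjusted p = 2.96e-06) in IL3 and by 3.42 (SE 0.234, adjusted p = 2.03e-26) in GCSF, and from undifferentiated cells to GCSF-OHT 168h its log2 change was 0.12 (SE 0.234, adjusted p = 0.679).

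Itgax was called above its start from 2h, against 8h for Itgam, at 23 of 25 time points of the fit in IL3 and at every one of 26 from 2h on in GCSF. The step from 1h to 2h in GCSF, 5.86 ± 1.61 to 12.3 ± 3.10 normalized counts, was 0.96 (SE 0.234, adjusted p = 0.000669). In IL3 the log2 change from undifferentiated cells was 0.65 (SE 0.234, adjusted p = 0.0201) at 2h. At all 25 fitted IL3 time points, 1h included, that change was 0.548 or more. The first call at 2h thus does not date the rise of Itgax in IL3. The mean was highest in IL3 at 251 (104h) among the fitted time points, and in GCSF at 107.5 ± 6.55 (144h).

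Itgal, the alpha subunit of LFA-1, moved opposite to Itgax in GCSF before OHT and fell in the IL3 course. Its libraries were at 58.9, 75.7 and 63.8 normalized counts in undifferentiated cells and at 244, 282 and 249.8 at GCSF 0h. They were at 27.3, 32.9 and 32.99 at IL3-OHT 168h and at 359, 366 and 338 at GCSF-OHT 168h. All 4 groups were apart, with both GCSF groups above the undifferentiated libraries and IL3-OHT 168h below them. Itgal rose by 1.96 (SE 0.169, adjusted p = 5.16e-20) before OHT, 3.91-fold, and stood 2.41 (SE 0.169, adjusted p = 4.56e-26) above undifferentiated cells at GCSF-OHT 168h. In IL3 it fell by 168h, with a log2 change of -1.06 (SE 0.169, adjusted p = 2.98e-08). From GCSF 0h to GCSF-OHT 168h the change was 0.45 (SE 0.169, adjusted p = 0.0175), under the fold threshold.

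Over time, Itgal was called higher than GCSF 0h at 9 of 27 time points, the earliest at 88h, and reached 545 ± 24.1 (SD, n = 3) at 128h. In IL3 it was called lower than in undifferentiated cells at 24h and at all 7 fitted time points from 112h on, and its lowest mean was 27.5 at 152h.

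Itgb2, the partner of these 3 alpha subunits, fell in GCSF before OHT and rose late in both courses. Normalized counts were 28053, 28209 and 27039.9 in undifferentiated libraries and 18571, 15669 and 16521 at GCSF 0h. They were 42832, 44234 and 43847 at IL3-OHT 168h and 27623, 27068 and 26894 at GCSF-OHT 168h. The GCSF 0h libraries were below and the IL3-OHT 168h libraries above the rest, and the undifferentiated and GCSF-OHT 168h libraries overlapped. Itgb2 fell by GCSF 0h, with a log2 change of -0.72 (SE 0.0474, adjusted p = 9.55e-28), and rose by 0.65 (SE 0.0474, adjusted p = 1.73e-24) in IL3 and by 0.69 (SE 0.0474, adjusted p = 3.37e-26) under OHT in GCSF. From undifferentiated cells to GCSF-OHT 168h the change was -0.03 (SE 0.0474, adjusted p = 0.607). In both courses the mean was lowest in the earliest hours, 20293 ± 343 at 12h in IL3 and 16624 ± 337 at 8h in GCSF. It was highest late, 54421 ± 2471 at 128h in IL3 and 30427 ± 1833 at 160h in GCSF. It was called above the start at 8 of 25 time points in IL3 (from 80h) and at 6 of 27 in GCSF (from 128h).

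Itga4, the alpha subunit of VLA-4, rose in every endpoint comparison. Its libraries were at 137.4, 129.9 and 157.2 normalized counts in undifferentiated cells and at 319, 343 and 289 at GCSF 0h. They were at 325, 329 and 275 at IL3-OHT 168h and at 520.4, 561 and 702 at GCSF-OHT 168h. The undifferentiated libraries were the lowest and the GCSF-OHT 168h libraries the highest, and GCSF 0h overlapped IL3-OHT 168h. The log2 change was 1.16 (SE 0.122, adjusted p = 3.52e-15) at GCSF 0h, 1.13 (SE 0.122, adjusted p = 2.18e-14) for IL3-OHT 168h, 2.06 for GCSF-OHT 168h and 0.90 (SE 0.122, adjusted p = 2.22e-10) from GCSF 0h to GCSF-OHT 168h. The step from 4h to 8h, also called for Itgam, was 0.81 (SE 0.122, adjusted p = 1.52e-08) in IL3 and 0.70 (SE 0.122, adjusted p = 1.62e-06) in GCSF. It was highest at 48h in IL3 (484 ± 35.3) and at 40h in GCSF (786 ± 37.6), well before the last time point in either course.

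Itgb1, the beta subunit of VLA-4, fell in GCSF before OHT, while its changes under OHT by 168h were not called. Its libraries held 11329, 11876 and 12701 normalized counts in undifferentiated cells and 7050.3, 6401 and 6643 at GCSF 0h. They held 9864, 10451 and 10135 at IL3-OHT 168h and 7141, 7731 and 6942 at GCSF-OHT 168h. The undifferentiated libraries were above those of the other 3 groups, and both GCSF groups, which overlapped each other, were the lowest. The log2 change in GCSF before OHT was -0.84 (SE 0.0634, adjusted p = 1.53e-23), against -0.24 under OHT in IL3 and 0.12 in GCSF. The time points at which Itgb1 was called lower than at the start were 56h and 80h in IL3, and its mean was lowest at 80h in both courses, 7962 ± 313 in IL3 and 5366 ± 182.9 in GCSF.

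Itgb7, the other beta partner of Itga4, was at low counts with wide spread in GCSF. The libraries had 70.7, 73.6 and 73.3 normalized counts in undifferentiated cells and 29.6, 25.7 and 27.03 at GCSF 0h. They had 104.5, 117.1 and 101.8 at IL3-OHT 168h and 83.6, 62.6 and 41.1 at GCSF-OHT 168h. GCSF 0h was the lowest and IL3-OHT 168h the highest group, while the GCSF-OHT 168h libraries spanned the undifferentiated ones. Itgb7 fell in GCSF before OHT, -1.37 (SE 0.233, adjusted p = 1.39e-07), and rose under OHT in GCSF, 1.10 (SE 0.233, adjusted p = 2.16e-05). In IL3 its change by 168h, 0.56 (SE 0.233, adjusted p = 0.0351), was just under the fold threshold. Its IL3 course dipped to 40.8 ± 4.03 at 40h, the only time point called lower, and peaked at 141.8 ± 19.2 at 112h, with 6 time points called higher.

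Selplg, which encodes PSGL-1, fell in GCSF before OHT, and in IL3 it fell early and rose late. Its libraries held 5749, 5871 and 5148 normalized counts in undifferentiated cells and 2089, 1885 and 2001 at GCSF 0h. They held 6940.4, 6351 and 6887 at IL3-OHT 168h and 3642, 3330.4 and 3511 at GCSF-OHT 168h. The 4 groups did not overlap, with GCSF 0h the lowest and IL3-OHT 168h the highest. The log2 change by GCSF 0h was -1.49 (SE 0.0890, adjusted p = 5.2e-31), and under OHT in GCSF Selplg rose by 0.81 (SE 0.0890, adjusted p = 2.92e-14), to a level still below undifferentiated cells (-0.68, SE 0.0890, adjusted p = 4.06e-11). In IL3 the change at 168h was 0.27 (SE 0.0890, adjusted p = 0.00754), under the fold threshold.

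In IL3, Selplg was called lower than in undifferentiated cells at 4 time points from 3h to 12h, with its lowest mean at 8h (2023 ± 101.004) and a log2 change of -1.46 (SE 0.0890, adjusted p = 2.6e-30). It then climbed, with called steps from 12h to 16h (0.61, SE 0.0890, adjusted p = 5.9e-08) and from 72h to 80h (0.59, SE 0.0890, adjusted p = 6.24e-08). It was called higher at 7 time points from 80h on and peaked at 10212 ± 555 (SD, n = 3) at 112h, a log2 change of 0.87 (SE 0.0890, adjusted p = 8.13e-16). In GCSF the lowest mean was 1702 ± 147.7 at 4h, and Selplg was called above GCSF 0h at 16 of 27 time points from 32h on, with its highest mean under OHT, 5570.1 ± 128.02, at 136h.

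At GCSF 0h all 8 genes differed from undifferentiated cells, 2 up and 6 down, against 33.7% of all genes tested called in this comparison. By IL3-OHT 168h, 5 of 8 differed from undifferentiated cells, Itgam, Itgax, Itga4 and Itgb2 up and Itgal down, against 25.4% of all genes. By GCSF-OHT 168h, 5 of 8 differed from undifferentiated cells, Itgam, Itgal and Itga4 up and Itgb1 and Selplg down, against 39.1%. From GCSF 0h to GCSF-OHT 168h, 6 of 8 rose, all but Itgal and Itgb1, against 12.1% of all genes called higher and 24.8% called in either direction. These comparisons share the undifferentiated or the GCSF 0h libraries. The median log2 change of the members was -1.10, 0.61, 0.045 and 0.85 in the 4 comparisons, beside -0.092, -0.033, -0.11 and 0 over all genes tested. By limma's F-test over the time points of a course, undifferentiated cells included, all 8 genes varied in each course (adjusted p under 0.05 and a largest log2 change from undifferentiated cells over 0.58), as did 69.7% of genes in IL3 and 62.5% in GCSF.

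**Figure D2:**
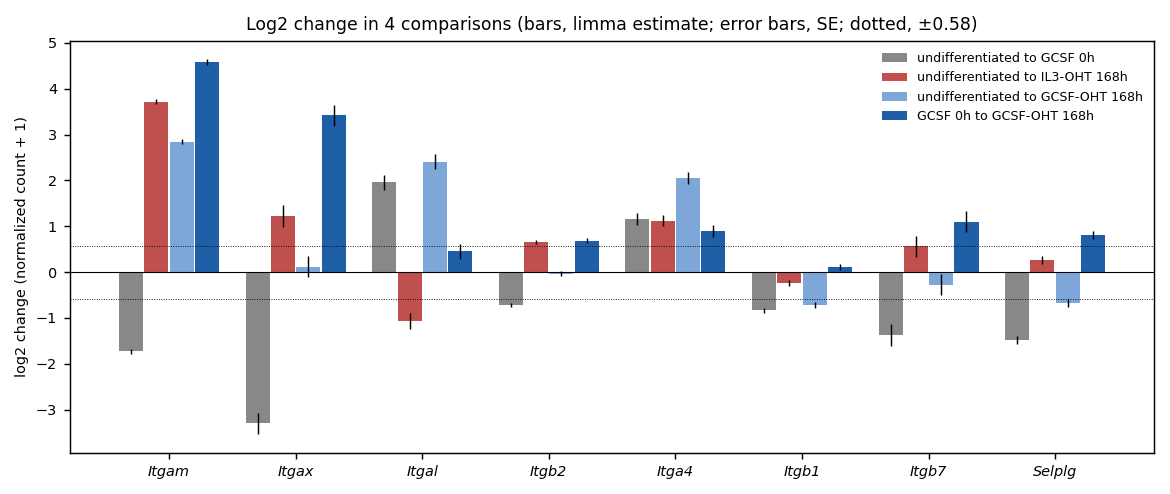
Log2 change of each gene (bars) with its standard error in the 4 comparisons of the starting and last groups, 1 colour a comparison. Dotted lines mark the fold threshold in each direction. The 8 genes all lie beyond the threshold of 0.58 at GCSF 0h, and Itgam has the largest rise in the other 3 comparisons.

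Whether the response to OHT depended on the cytokine was tested directly, as the OHT change in GCSF (GCSF 0h to GCSF-OHT 168h) minus that in IL3 (undifferentiated to IL3-OHT 168h). It was larger in GCSF for 3 of 8 genes, against 14.5% of all genes called higher and 25.7% called in either direction. For Itgax the changes were 3.42 in GCSF and 1.23 in IL3, a difference of 2.19 (SE 0.331, adjusted p = 1e-08). For Itgal they were 0.45 and -1.06, a difference of 1.52 (SE 0.238, adjusted p = 3.21e-08), with Itgal falling in IL3. For Itgam they were 4.58 and 3.72, a difference of 0.86 (SE 0.0874, adjusted p = 1.77e-15). Itgax and Itgam were lower in GCSF than in IL3 at both ends. Selplg and Itgb7, with differences of 0.54 (SE 0.126, adjusted p = 0.000143) and 0.54 (SE 0.329, adjusted p = 0.184), stayed under the fold threshold, as did Itgb1 (0.35), Itgb2 (0.036) and Itga4 (-0.23). Without replicate 3 of each group Selplg was called, at 0.62.

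Over the mean of 25 shared time points, 7 of 8 genes differed between the courses, against 24.5% of all genes. Itgal was 2.55 (SE 0.0340, adjusted p = 1.39e-96) and Itga4 0.82 (SE 0.0247, adjusted p = 2.13e-59) higher in GCSF-OHT on the log2 scale. Itgax was lower by the largest amount, -2.59 (SE 0.0472, adjusted p = 6.6e-82), followed by Itgb7 (-1.21), Itgam (-1.04), Selplg (-0.88) and Itgb2 (-0.65). Itgb1, at -0.55 (SE 0.0128, adjusted p = 6.4e-71), was under the fold threshold. The alpha subunits of the beta2 integrins were thus split, with Itgal higher and Itgam and Itgax lower in GCSF.

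Hour by hour, 160 of 200 comparisons of a member between the courses were called, against 22.7% over all genes. Itgal was higher in GCSF at 25 of 25 time points, by 1.38 at 1h and by 4.15 at 128h on the log2 scale. At 128h its libraries were at 565, 518 and 551 normalized counts in GCSF and at 33.1, 24.6 and 32.2 in IL3. Itgax was lower in GCSF at 25 of 25, and its difference narrowed from -4.05 at 1h to -1.11 at 168h. Itgam was lower at 21 of 25, all but those from 12h to 24h, when the differences were -0.37 at 12h and -0.56 at 24h. Its libraries at 16h were at 1379.9, 1435 and 1391 normalized counts in GCSF and at 2077, 2044 and 2035 in IL3.

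Itgb7 was lower in GCSF at 22 of 25 time points, Selplg at 21, Itgb2 at 14 and Itgb1 at 11, and Itga4 was higher at 21. The 4 time points at which Selplg was not called were 8h, 12h, 20h and 152h.

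**Figure D3:**
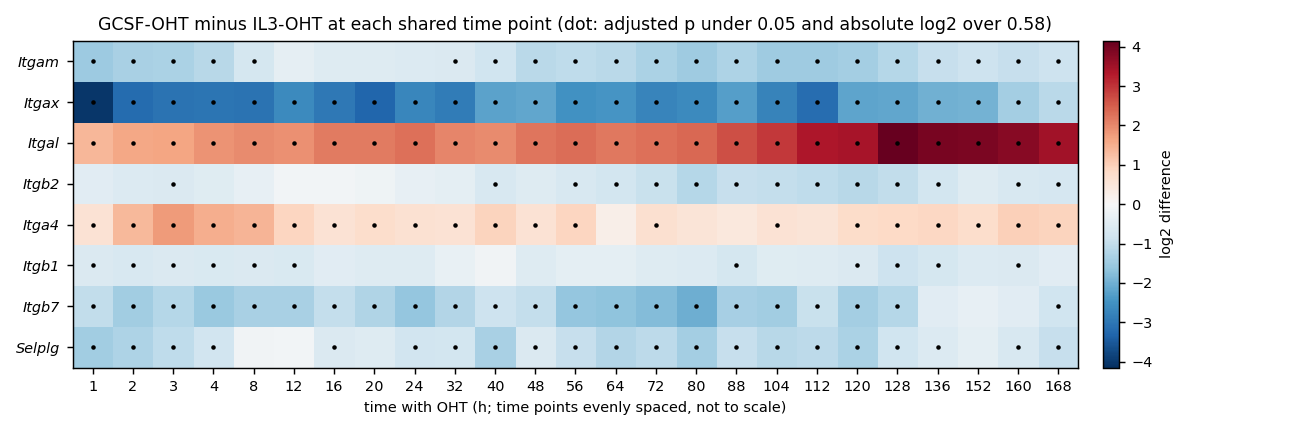
Log2 difference GCSF-OHT minus IL3-OHT (colour scale) for the 8 genes (rows) at the 25 shared time points (columns), with a mark where the difference was called. Itgal is higher in GCSF and Itgax lower at 25 of 25 time points, and the row of Itgam has its gap from 12h to 24h.

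Against the start of each course, 100 of 200 comparisons of a member with a time point were called in IL3, against 26.7% over all genes, and 109 in GCSF over its 27 time points, against 15.4%. Between neighbouring time points, few steps were called. In IL3 they were 6 of 200, against 3.65% over all genes, and all 6 were rises (against 1.76%): Itgam and Itga4 from 4h to 8h, Itgam from 8h to 12h, Selplg in the steps given above, and Itgax from 88h to 104h (1.11, SE 0.234, adjusted p = 0.000135). Without replicate 1 of each group, 10 IL3 steps were called. In GCSF they were 18 of 224, against 2.94%, and 8 of the 18 were the step from undifferentiated cells to GCSF 0h. Among the others, Itgax rose from 88h to 96h (1.03, SE 0.262, adjusted p = 0.00155), from 112h to 120h (0.97, SE 0.262, adjusted p = 0.00663) and from 136h to 144h (1.39, SE 0.234, adjusted p = 1.47e-06). The 120h libraries have names of another series than the rest, and GCSF-OHT 96h and 112h have 2 libraries each. Selplg fell from 88h to 96h (-0.64, SE 0.0995, adjusted p = 1.16e-07), rose from 96h to 104h (0.59, SE 0.0995, adjusted p = 1.53e-06) and fell from 160h to 168h (-0.61, SE 0.0890, adjusted p = 7.76e-08). Trypsin, which cuts proteins at the cell surface, was used to lift cells at the time points after 24h. From 24h to 32h the log2 steps of the members ran from -0.25 (Itgb7) to 0.35 (Itgal) in IL3 and from -0.17 (Itgax) to 0.21 (Selplg) in GCSF, all short of a call.

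The time points IL3-OHT 96h and 144h, which the study left out, were compared with their neighbours in a fit of all libraries. At IL3-OHT 96h Selplg was at 5229.6, 5171 and 4986 normalized counts, below all libraries at 88h (mean 8945) and 104h (mean 9767). The log2 difference from the mean of the neighbours was -0.86 (SE 0.0813, adjusted p = 1.33e-17), and that of Itgax was 0.63 (SE 0.199, adjusted p = 0.00544). Itgax was at 116.995 ± 20.5 at 88h, 264 ± 1.20 at 96h and 251 ± 3.58 at 104h, so it stood above 88h and close to 104h. These 2 of 8 members were called, against 17.5% of all genes. Without replicate 1 of each group Itgax was at 0.55 and only Selplg was called. At IL3-OHT 144h the libraries of Selplg were at 4084, 4175 and 6035, a difference of -0.63 (SE 0.0813, adjusted p = 3.97e-11). It was the only member called, against 15.4% of all genes, and Itgax was at 0.34. Its call was lost without replicate 1 of each group (-0.53), and without replicate 3 Itgal was also called (-0.65).

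In GCSF, Selplg and Itgax were called at 96h and Itgax at 144h. At GCSF-OHT 96h, with 2 libraries, Selplg was at 3098 and 2767 normalized counts, against means of 4579 at 88h and 4419.8 at 104h. The difference was -0.62 (SE 0.0890, adjusted p = 1.43e-08), and that of Itgax was 0.72 (SE 0.234, adjusted p = 0.0162), against 4.67% of all genes called. At GCSF-OHT 144h Itgax was 1.08 (SE 0.211, adjusted p = 5.34e-05) above its neighbours and Selplg at -0.31, against 1.85% called. These GCSF comparisons were chosen after the values were seen, so their calls and adjusted p-values are a description. Per the labels, fresh OHT was added at 88h and 136h, 8 h before 96h and 144h. The part of the plate or of this renewal in the result was not tested.

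**Figure D4:**
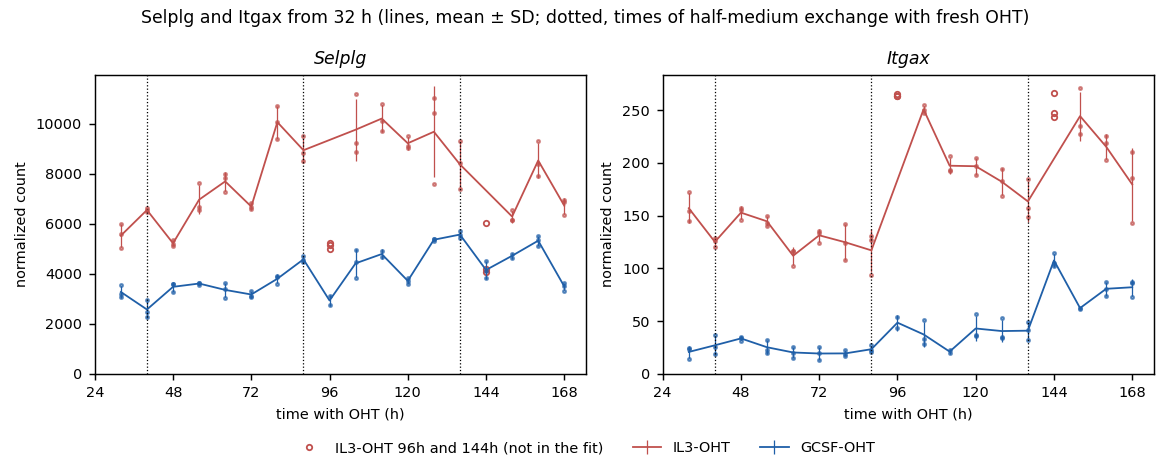
Normalized counts of Selplg and Itgax by library from 32h to 168h in both courses, with open symbols for IL3-OHT 96h and 144h, which were left out of the main fit. Dotted lines mark 40h, 88h and 136h, when the medium was renewed in part with fresh OHT. Selplg drops at 96h in both courses, and Itgax stands above its neighbours at 96h and 144h in GCSF.

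The balance between partner subunits was given as the log2 ratio of normalized counts within a library. This scale is not per length, so only its changes between groups are read. Of 21 comparisons of a ratio with undifferentiated cells, 20 had groups that did not overlap. Over all genes tested and the same 3 comparisons with undifferentiated cells, the libraries of single genes did not overlap in 60.8%. No such share was computed for ratios of other genes. With 3 libraries against 3, the exact two-sided permutation test cannot give less than p = 0.1, which 20 of the 21 reached (adjusted over the 21, 0.105), so no ratio could pass 0.05. Itgam to Itgal, Mac-1 against LFA-1, had a log2 ratio of 3.13 in undifferentiated cells, -0.58 at GCSF 0h, 7.94 at IL3-OHT 168h and 3.55 at GCSF-OHT 168h. The ratio was thus lowest at GCSF 0h and highest at IL3-OHT 168h.

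Against Itgb2, Itgam moved from -5.59 to -6.61, -2.52 and -2.71 in the same order of groups, and Itgal from -8.72 to -6.03, -10.46 and -6.26. The ratio of Itgam to Itgb2 was higher at both last time points than at either start, while that of Itgal was higher in both GCSF groups than in undifferentiated cells and at IL3-OHT 168h. Itgax to Itgam was -2.94, -4.69, -5.42 and -5.67. Itga4 to Itgb1 rose from -6.41 to -4.40, -5.04 and -3.62. The comparison that overlapped was Itgb7 to Itgb1 at GCSF-OHT 168h, -7.37 against -6.92 (exact p = 0.3).

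**Figure D5:**
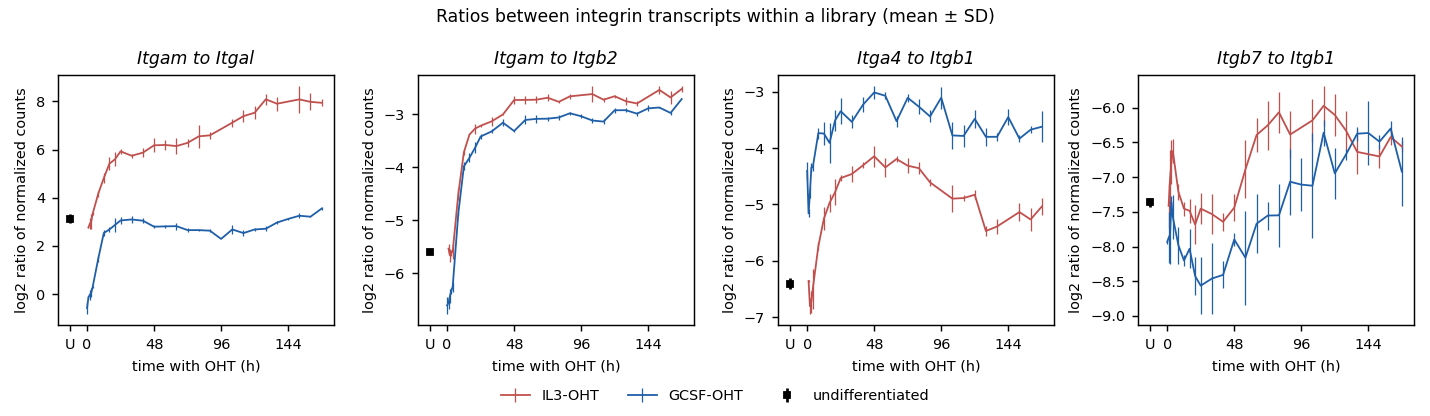
Log2 ratio of normalized counts between subunits against hours after OHT, with lines joining group means, bars for SD, and a colour for each course. A black square marks undifferentiated cells. Itgam to Itgal rises in IL3 and stays lower in GCSF, and Itga4 to Itgb1 lies above its undifferentiated value of -6.41 at the last time point of both courses.

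The rest of the adhesion machinery was read from 8 lists, with 104 genes tested. The lists were chosen with earlier results of these data known, so their counts are a description. Over all lists, 17 rose and 25 fell by GCSF 0h (median log2 change -0.30, against -0.092 over all genes tested), 21 rose and 14 fell by IL3-OHT 168h (0.031 against -0.033), and 36 rose and 14 fell from GCSF 0h to GCSF-OHT 168h (0.31 against 0). Against undifferentiated cells, 33 rose and 25 fell by GCSF-OHT 168h (0.20 against -0.11). Of all genes, 33.7% were called in either direction at GCSF 0h, 25.4% by IL3-OHT 168h and 39.1% by GCSF-OHT 168h against undifferentiated cells. From GCSF 0h to GCSF-OHT 168h, 24.8% of all genes were called in either direction.

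Enzymes that build the sugars of PSGL-1 moved in both directions. Of 19 tested genes for selectin ligand glycosylation and sulfation, 6 rose and 3 fell by GCSF 0h, 5 rose and 3 fell by IL3-OHT 168h and 3 rose and 4 fell from GCSF 0h to GCSF-OHT 168h, against 33.7%, 25.4% and 24.8% of all genes called in either direction. Fut7, the fucosyltransferase that completes the sialyl Lewis x sugar which selectins bind, rose from 39.9 ± 7.39 normalized counts to 324 ± 30.3 at GCSF 0h (log2 change 3.00, SE 0.134, adjusted p = 1.01e-41). It was at 155.7 ± 15.7 at IL3-OHT 168h (log2 change 1.95, SE 0.134, adjusted p = 3.06e-26) and at 320.0 ± 16.9 at GCSF-OHT 168h. Fut7 thus rose at GCSF 0h, where Selplg, which encodes the carrier of the sugar, fell. Gcnt1, which makes the branched core 2 glycan of PSGL-1, was at 1000.2 ± 35.5 in undifferentiated cells, 432 ± 24.2 at GCSF 0h, 2339 ± 140.4 at IL3-OHT 168h and 1995 ± 46.2 at GCSF-OHT 168h. Its rise under OHT in GCSF was the largest of the list (log2 change 2.21, SE 0.0694, adjusted p = 6.41e-56).

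Of 33 tested genes for integrin activation and linkage to actin, 7 rose and 5 fell by GCSF 0h, 9 rose and 4 fell by IL3-OHT 168h and 13 rose and 4 fell from GCSF 0h to GCSF-OHT 168h. The first of these counts, 12 of 33, was near the 33.7% of all genes called, and the others stood beside 25.4% and 24.8%. Lyn, a Src-family kinase downstream of leukocyte integrins, rose from 1462 ± 12.5 to 6085 ± 285 (log2 change 2.06, SE 0.0401, adjusted p = 6.05e-77). Rap1gap2, which turns off the GTPase Rap1, rose from 393 ± 42.9 to 2300.4 ± 144.6 (log2 change 2.55, SE 0.110, adjusted p = 9.16e-43). Syk, the kinase that relays signals from beta2 integrins and is named here after its values were seen, was at 0 in all undifferentiated and GCSF 0h libraries, at 18.7 ± 0.370 at IL3-OHT 168h and at 51.5 ± 5.31 at GCSF-OHT 168h. Vcl encodes vinculin, which ties integrins to actin, and went from 3742 ± 37.9 in undifferentiated cells to 1292 ± 81.9 at GCSF 0h, 796 ± 63.03 at IL3-OHT 168h and 818 ± 65.3 at GCSF-OHT 168h, a fall in each against undifferentiated cells (-1.54, -2.23 and -2.20 on the log2 scale).

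Of 13 tested alpha subunits outside the members, 8 fell by GCSF-OHT 168h, and 1 rose and 2 fell by IL3-OHT 168h, against 39.1% and 25.4% of all genes called. Of 5 other tested beta subunits, 2 rose and 3 fell by GCSF-OHT 168h. Itga2b, a platelet and progenitor integrin, fell from 348 ± 47.3 to 72.8 ± 9.97 at GCSF 0h (log2 change -2.24, SE 0.142, adjusted p = 3.43e-29). Itgb5, a beta partner of Itgav, rose under OHT in GCSF from 441 ± 31.7 to 1108 ± 66.3 (log2 change 1.33, SE 0.0796, adjusted p = 1.12e-30). Of 9 other carriers of selectin ligands, 3 rose and 1 fell from GCSF 0h to GCSF-OHT 168h, where 24.8% of all genes were called. Cd44 rose from 3345 ± 79.6 to 7779 ± 289 (log2 change 1.22, SE 0.0505, adjusted p = 2.58e-44), and Spn (CD43) fell from 18786 ± 484 to 8999 ± 494 (log2 change -1.06, SE 0.0446, adjusted p = 5.95e-44), while Selplg rose.

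Of 10 genes for sheddases and regulators of surface level, 5 fell by GCSF 0h, 2 rose by IL3-OHT 168h and 5 rose from GCSF 0h to GCSF-OHT 168h, against 33.7%, 25.4% and 24.8% of all genes called. Mmp9, the gelatinase of neutrophil granules, rose in both courses, from 13.5 ± 0.739 to 597 ± 39.3 in IL3 (log2 change 5.37, SE 0.195, adjusted p = 1.58e-49) and from 8.51 ± 2.76 to 3120.0 ± 762 in GCSF (log2 change 8.38, SE 0.195, adjusted p = 8.12e-69). Adam8, a membrane metalloprotease known to cut PSGL-1, fell from 37588 ± 1293 to 4759 ± 801 at GCSF 0h (log2 change -2.99, SE 0.0862, adjusted p = 1.14e-59). Of 12 tested integrin ligands, 6 rose and 3 fell from GCSF 0h to GCSF-OHT 168h, where 24.8% of all genes were called. Among these were C3, whose fragment iC3b is bound by Mac-1, which rose (log2 change 0.97, SE 0.0503, adjusted p = 6.33e-36), and Fn1, the fibronectin bound by VLA-4, which also rose (log2 change 1.55, SE 0.140, adjusted p = 1.61e-18), while Spp1 (osteopontin) fell (log2 change -1.75, SE 0.0885, adjusted p = 1.1e-36).

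The genes whose group means followed each member most closely over 54 groups, on the log2 scale and among 10647 genes with a mean of at least 50, were named by Pearson's r as a description, since the groups share starting libraries and the normalization. For Itgam they were Lilra6 (r = 0.958), Ankrd37 (r = 0.955) and Hk2 (r = 0.954). For Itgal they were Lbp (r = 0.979), E2f2 (r = 0.969) and Llgl2 (r = 0.969), and for Itgax Gsap (r = 0.961), Clec4d (r = 0.940) and Col23a1 (r = 0.932). For Itgb2 the leading genes were Hopx (r = 0.948), Plekhn1 (r = 0.943) and Selenbp2 (r = 0.943), for Itga4 Svip (r = 0.964), Grb14 (r = 0.940) and Pram1 (r = 0.939) and for Itgb1 Creb5 (r = 0.951), Ctsl (r = 0.941) and Fxyd5 (r = 0.935). For Itgb7 they were Furin (r = 0.930), Ctsh (r = 0.925) and Hip1 (r = 0.921), and for Selplg Ero1l (r = 0.960), Aldoc (r = 0.953) and BC021767 (r = 0.947). Among the members themselves, Itgb2 was most like Itgb7 (r = 0.885) and Selplg (r = 0.876). Itgam and Itgal had r = -0.55 over the 26 groups of the IL3 course and r = 0.67 over the 28 of the GCSF course, so their relation had a different sign in each.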

How the data were processed

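RNA from 165 libraries of PUER cells was sequenced as paired reads from polyadenylated RNA. Per the labels and the study's methods, the authors quantified the reads with Salmon against GRCm38 (mm10) and deposited counts normalized by DESeq2's median of ratios, a signal in units of reads divided by a size factor. The step from transcripts to genes, the annotation and the tool versions were not given in the sources used here, nor was the use of strand in counting. In each library 100.0% of values (within 1e-06 of a whole number) came out as whole reads. In 7 libraries, with size factors near 1, the step between values was not checked separately.

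The 8 members and the pathway and marker lists were chosen with earlier results of these data known. Values were tested as log2(normalized count + 1) with limma 3.58.1 (R 4.3.3), 1 mean per group over 159 libraries, with a mean-variance trend, and Benjamini-Hochberg adjustment per comparison over genes that reached a normalized count of 5 in any fitted library. Fold changes on this scale understate the change of low genes. IL3-OHT 96h and 144h, left out by the authors, entered only a second fit of all libraries. The alternatives were edgeR 4.0.16 and DESeq2 1.42.0 on the recovered reads (edgeR called 1788 genes higher and 2375 lower from undifferentiated cells to IL3-OHT 168h, and limma 1782 and 2641), other pseudocounts (0.5 and 5), other filters, upper-quartile scaling, a replicate block, only the compared groups, IL3-OHT 96h and 144h kept in the fit, and each replicate left out. A fit without the 6 libraries of 120h, whose library names follow another series, lengths from merged exons, and the GCSF comparisons with neighbouring time points were added after the values were seen. Named list genes were the largest called changes in each direction among genes with a mean of at least 50 over the fitted libraries, up to 2 a list. The list of selectins is not reported here. Calls were tested on simulated data. Depth intervals and the floor of 3 reads cover counting error only. The motif search used all RefSeq windows of 250 bases.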

Additional observations from a re-analysis of the deposited data

Results flagged for a closer look

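For 3 of the 8 genes the change under OHT by 168h differed between the cytokines by limma's test of the difference itself (GCSF minus IL3). The difference was 2.19 (SE 0.331, adjusted p = 1e-08) for Itgax, with libraries at 5 to 13 reads in the GCSF 0h group from which its change in GCSF was measured. For Itgal it was 1.52 (SE 0.238, adjusted p = 3.21e-08), and for Itgam 0.86 (SE 0.0874, adjusted p = 1.77e-15). The 3 GCSF-OHT 168h libraries of Itgax and Itgam were all lower than those of IL3-OHT 168h, and the 3 of Itgal were all higher. The part of the OHT dose, which was 100 nM in GCSF and 200 nM in IL3, cannot be told apart from that of the cytokine. Per the study's methods, cells for the IL3 course were seeded in IL3 when the 48 h in GCSF began, and both courses received OHT at the same time. The undifferentiated libraries serve as the start of both, so a difference in time in culture between the 2 starting groups cannot be settled here.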

How the results depend on the processing

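Over all settings tried, the recomputed counts of called members stayed within 1.5 times the reported count other than those given below, and 825 of 840 recomputed changes of single genes kept their direction and their side of the threshold. With upper-quartile scaling the 1 call at IL3-OHT 144h was lost (0 members, Selplg -0.561). With 1 replicate of each group left out, the members called numbered 1 to 2 at IL3-OHT 96h and 0 to 2 at IL3-OHT 144h, 7 to 10 steps were called in IL3 and 16 to 20 in GCSF, and 3 to 4 members differed in their change under OHT. The differences from the main values at 96h and 144h came without replicate 1 (1 member at 96h, 0 at 144h) and without replicate 3 (2 at 144h), and the 10 IL3 steps without replicate 1. The members called over the IL3 course were 7 to 8, and the comparisons with undifferentiated cells, GCSF 0h and the mean of the shared time points kept their counts of 8, 5, 5, 6 and 7. The time of the highest mean stayed the same in 11 to 15 of 16 gene courses. In all, 9 recomputed changes turned direction, each of a value short of a call. Against undifferentiated cells at GCSF-OHT 168h these were Itgb2 (0.00966 by edgeR) and, with 1 replicate left out, Itgb7 (-0.526 to 0.00436), and in the difference of OHT changes Itgb2 (-0.0161 to 0.0726). With 1 replicate left out, at IL3-OHT 96h they were Itgal (-0.00263 to 0.0827), Itgb7 (-0.213 to 0.142) and Itgb1 (-0.0930 to 0.0178), and at IL3-OHT 144h Itgal (-0.647 to 0.0868) and Itgb1 (-0.0965 to 0.0215, and 0.0260 with upper-quartile scaling). Itgal at 144h was also called, at its lowest value, without replicate 3. By edgeR Itgb7 passed the fold threshold at IL3-OHT 168h (0.593). The cause of these changes was not tested.

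Replicate numbers shared by the groups did not pair the libraries, since the deviations of same-numbered libraries correlated by -0.13 to 0.16 over 12 pairs of the endpoint groups and by -0.45 to 0.51 over those of consecutive time points, and 0 of 47 such steps had every pair over 0.1. With the replicate block the counts of members called were 8 at GCSF 0h, 5 at either 168h time point against undifferentiated cells, 6 from GCSF 0h, 3 for the difference of OHT changes and 7 over the shared time points, with 100, 109 and 160 calls by time point and 6 and 18 by step, all as without it. At 14600246 reads or more a library, depth was a limit for Itgax early in GCSF, where 5 to 13 reads a library were counted at GCSF 0h and 5 to 7 at GCSF-OHT 1h.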

Other observations

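Several late time points at which Selplg was low and Itgax high are multiples of 24 h. Their differences from the mean of the time points 8 h before and after are given as a description, since these values prompted the comparison. Those at 96h and 144h were also tested above, and the GCSF tests were chosen after the values were seen. The differences at 48h and 72h are not given here. For Selplg the log2 difference was -0.62 at 96h, -0.45 at 120h and -0.31 at 144h in GCSF, and -0.86, -0.10 and -0.63 in IL3. For Itgax it was 0.72, 0.53 and 1.08 in GCSF, and 0.63, 0.055 and 0.34 in IL3. IL3-OHT 120h thus stood close to its neighbours for both genes. Every time point is a plate of its own. The 6 libraries of 120h also have names of another series than those of the neighbouring time points, and GCSF-OHT 112h has 2 libraries. The medium was renewed in part, with OHT, at 40h, 88h and 136h, so 48h, 96h and 144h each came 8 h after a renewal, while 72h and 120h did not. The part of the plate or of the renewal in these values was not tested.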
